A study of Homo sapiens with 6 samples.

Results

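The BTG/TOB antiproliferative family and the deadenylases it recruits were followed in HT29 cells after knockdown of ALDOA. The 9 genes are BTG1, BTG2, BTG3, TOB1 and TOB2, and the catalytic subunits CNOT6, CNOT6L, CNOT7 and CNOT8 of the CCR4-NOT complex. They were chosen by gene symbol, with their differences between siALDOA and siControl in these same libraries already known, so their fold changes and calls are given as a description. All 9 were among the 28278 genes listed, of which 20970 had a count in some library, and all 9 passed the filter on low counts, as did 15307 genes in all.

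HT29 is a human colorectal adenocarcinoma line. The cells received siRNA against ALDOA (siALDOA) or a scrambled siRNA (siControl), and total RNA was taken after 48 h from 3 biological replicates of each, which gave 6 libraries. The comparison asks which transcripts differ when the mRNA of this glycolytic aldolase is lowered. As a model it has 1 cell line, the labels name 1 siRNA treatment against the gene, and no untransfected cells were analysed here. The siALDOA libraries held 28166497, 28690395 and 27277538 counts, and the siControl libraries held 33237914, 31973122 and 31899091. The share of ribosomal RNA genes was 13.1%, 7.71% and 8.11% with siALDOA against 17.4%, 15.3% and 8.15% with siControl. Levels are CPM, counts scaled to the TMM-adjusted library size, fold changes are log2 of siALDOA over siControl, and a gene was called at a Benjamini-Hochberg adjusted p below 0.05 in edgeR's quasi-likelihood test over all genes tested.

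BTG and TOB proteins share an N-terminal domain that binds the deadenylases CNOT7 and CNOT8, and through them they bring the CCR4-NOT complex to mRNAs, whose poly(A) tails it shortens. They are called antiproliferative because cells in which they are overexpressed proliferate more slowly. BTG2 is a classical p53 target and an early-response gene.

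ALDOA, the siRNA target, had 283, 304.8 and 279.7 CPM in the siALDOA libraries and 591.8, 636.9 and 667.7 CPM in the siControl libraries. All 3 siALDOA libraries lay below the siControl libraries, and its log2 fold change was -1.13 (standard error 0.060, adjusted p = 6.95e-11). The epithelial label was checked against 11 markers. Of these, 10 were counted and LGALS4 was at 0 in all 6 libraries. Their summed level was 9479, 9653 and 9811 CPM with siALDOA and 10040, 10320 and 10610 CPM with siControl, most of it from KRT8, a keratin of simple epithelia, at a mean of 5340 CPM. These sums did not overlap, but did with library totals alone. Of the 10 markers tested, 8 had a log2 fold change below 0 (median -0.118), and 5 were lower and 1 higher without overlap of the groups, beside 14.6% and 13.1% of all genes tested. Called were 1 higher and 1 lower, beside 4.36% and 5.29% of all genes tested. KRT19 rose (log2 fold change 0.38, adjusted p = 0.000577) and KRT18 fell (log2 fold change -0.28, adjusted p = 0.0152), each in 3 of 3 libraries. KRT18 lost its call without siALDOA replicate 2 or 3 or siControl replicate 2 or 3, at -0.27 in each and adjusted p from 0.0512 to 0.075, and with library totals alone (-0.21, adjusted p = 0.243). DESeq2 and the replicate block each called 2 markers lower, limma-voom 3 and library totals alone 0, each with 1 higher. Over all genes DESeq2 called 922 lower and 710 higher of 13387. Of 15307 genes, the block called 1175 lower and 987 higher, limma-voom 782 and 629, and library totals alone 279 and 896. Named after their values were seen, KRT8 (-0.14, adjusted p = 0.357) was called lower by DESeq2 (adjusted p = 0.0429) and limma-voom (0.0468), and CEACAM5 (-0.46, adjusted p = 0.0516) by limma-voom (0.0468), with the block (0.0169), without the filter on low counts (0.0124) and without siALDOA replicate 3 (-0.60, 0.0192). The 15 blood cell markers summed to between 2.37 and 4.33 CPM per library, with 6 of them at 0 and CORO1A highest at 2.63 CPM. The 10 fibroblast and endothelial markers summed to between 3.08 and 4.46 CPM, with COL1A2 and KDR at 0 and COL1A1 highest at 2.15 CPM.

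Of the 9 genes, 3 fell with siALDOA (BTG1, TOB2 and CNOT6L), 0 rose and 6 were not called. Over all genes tested 5.29% were called lower and 4.36% higher, and since the same contrast was known when the genes were chosen, nothing is read from the difference. At an unadjusted p below 0.05, 4 were lower and 2 higher (BTG2 and CNOT8). At least 3602 of all 15307 genes tested passed that threshold, in either direction. Both DESeq2 and limma-voom called 3 lower and 0 higher. Over all genes DESeq2 called 922 lower and 710 higher of 13387, and limma-voom 782 lower and 629 higher of 15307. The replicate block called 3 lower and 1 higher (BTG2), beside 1175 lower and 987 higher of all 15307 genes. The libraries of both groups did not overlap for 4 genes lower with siALDOA and 1 gene higher, beside 14.6% and 13.1% of all genes tested. The median log2 fold change of the 9 was -0.02, beside 0.002 for all genes. These calls depend on the scaling. With library totals alone 0 of the 9 were called, 896 genes were called higher and 279 lower where TMM scaling gave 668 and 810, and the median of all genes was 0.075. With ribosomal RNA genes left out and the remaining totals used, 3 of the 9 were again called lower, beside 760 of 15287 genes. In bulk RNA, a smaller number of cells of one kind and less RNA per cell cannot be told apart.

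**Figure D1:**
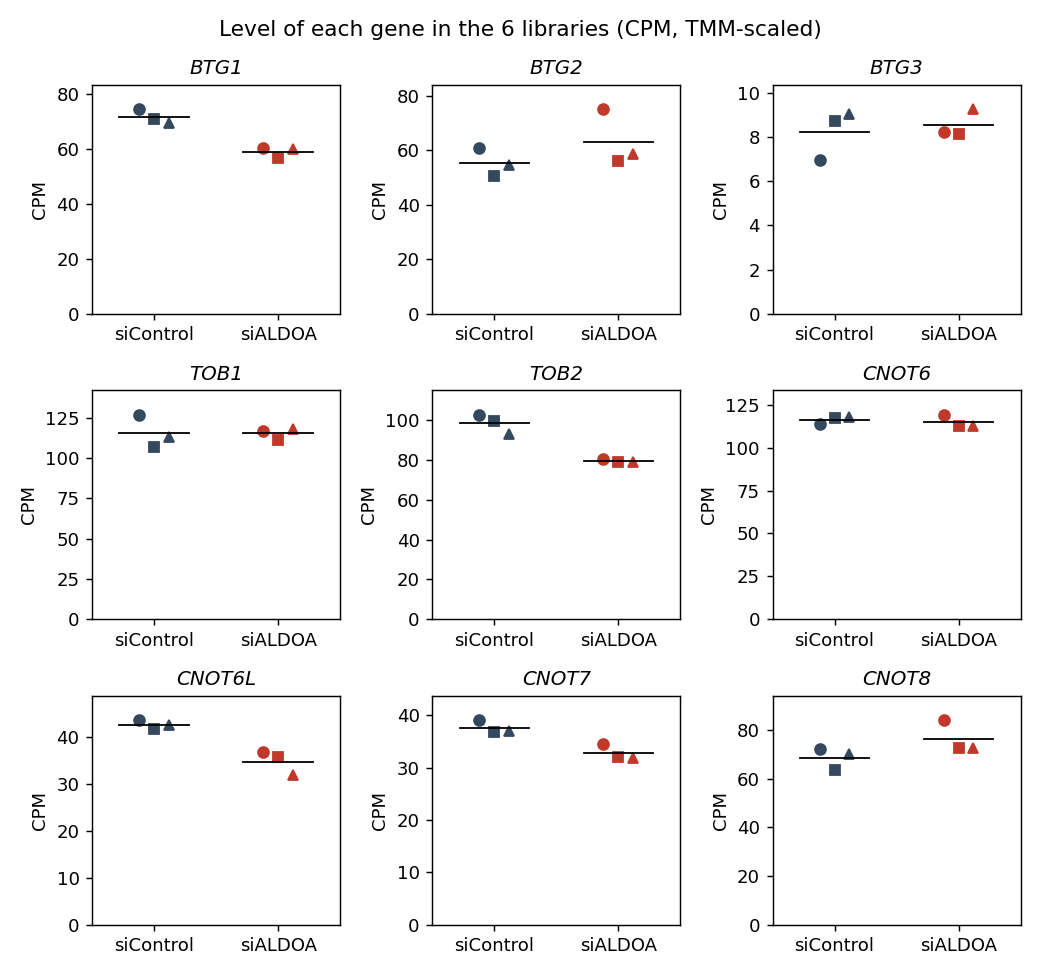
Level of each of the 9 genes (CPM, TMM-scaled, axis from 0) in the 3 siControl and 3 siALDOA libraries; circles, squares and triangles mark replicates 1, 2 and 3, and lines mark group means. BTG1, TOB2, CNOT6L and CNOT7 were lower in every siALDOA library than in any siControl library, and CNOT8 was higher, while the groups overlapped for BTG2, BTG3, TOB1 and CNOT6.

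Within the BTG genes, BTG1 and BTG2 are close paralogs that also bind the arginine methyltransferase PRMT1. Their promoters are shown because one gene fell and the other did not pass the test, and that of TOB2 because it fell as well. The windows run from 250 bases before to 50 after the start site in RefSeq (GRCh38.p14), in the direction of the gene. Capitals mark the words searched on both strands, namely TATAAA (the TATA box), CCAAT (the box named for it), GGGCGG (the GC box), TGTTTAC (forkhead site), TGACGTCA (cAMP response element) and CACGTG (E-box), which were picked with the sequences in view.
BTG1, minus strand, chr12:92145797-92146096: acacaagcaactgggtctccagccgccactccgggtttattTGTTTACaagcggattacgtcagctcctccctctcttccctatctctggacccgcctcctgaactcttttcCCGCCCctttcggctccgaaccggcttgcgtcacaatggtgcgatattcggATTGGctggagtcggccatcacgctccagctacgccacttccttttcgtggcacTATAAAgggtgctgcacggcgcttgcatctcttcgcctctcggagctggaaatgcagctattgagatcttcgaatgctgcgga
BTG2, plus strand, chr1:203305269-203305568: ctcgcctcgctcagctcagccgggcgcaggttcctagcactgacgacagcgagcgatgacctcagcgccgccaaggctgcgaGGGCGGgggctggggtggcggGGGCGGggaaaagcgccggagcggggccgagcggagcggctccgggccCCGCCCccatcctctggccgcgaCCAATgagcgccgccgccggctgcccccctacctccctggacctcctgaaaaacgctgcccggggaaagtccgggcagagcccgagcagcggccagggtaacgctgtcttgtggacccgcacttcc
TOB2, minus strand, chr22:41446752-41447051: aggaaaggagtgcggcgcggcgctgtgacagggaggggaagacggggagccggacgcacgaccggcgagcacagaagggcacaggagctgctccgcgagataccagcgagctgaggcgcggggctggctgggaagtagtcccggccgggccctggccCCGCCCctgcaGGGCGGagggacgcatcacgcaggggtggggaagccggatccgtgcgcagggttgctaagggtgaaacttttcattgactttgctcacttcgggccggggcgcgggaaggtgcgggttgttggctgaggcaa

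The BTG1 window held 1 TATA box, 1 CCAAT box, 1 GC box and 1 forkhead site. The BTG2 window held 1 CCAAT box and 3 GC boxes, and the TOB2 window held 2 GC boxes. None of these 3 windows held the cAMP response element or the E-box. Among all 35116 windows of the same length, 11.5% held a TATA box, 34.6% a CCAAT box, 45% a GC box, 3.42% the forkhead site, 1.85% the cAMP response element and 7.26% the E-box. CNOT6L, which fell as well, has 3 windows, with 3, 4 and 2 GC boxes and none of the other words. These matches describe letters only.

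BTG1 (chromosome 12 of hg38, 92140278 to 92145846) stood at 60.4, 56.5 and 60.1 CPM with siALDOA and at 74.3, 70.8 and 69.3 CPM with siControl. All 3 siALDOA libraries lay below all 3 siControl libraries. BTG1 fell from 71.5 ± 2.57 to 59.0 ± 2.18 CPM (SD, n = 3 each), a log2 difference of -0.28 (standard error 0.0635, adjusted p = 0.00729). LINC01619, a noncoding gene on the same strand that shares 503 exon bases with BTG1, was counted 0, 0 and 4 times after siALDOA and 13, 6 and 4 times after siControl, against 1682 to 2318 counts of BTG1. With library totals alone BTG1 was at -0.20 and not called (adjusted p = 0.136), with adjusted p from 0.00114 to 0.136 over the 13 alternatives.

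BTG2 (chromosome 1, 203305491 to 203309602) stood at 75.1, 56.1 and 58.6 CPM with siALDOA and at 60.8, 50.5 and 54.6 CPM with siControl. The groups overlapped, and siALDOA replicate 1 was the highest library. The log2 fold change of BTG2 was 0.19 (standard error 0.0924, adjusted p = 0.21), and without siALDOA replicate 1 it was 0.05. That library also had the highest share of ribosomal RNA genes in its group, 13.1%; with ribosomal RNA genes left out and the remaining totals used, BTG2 was at 0.20 (adjusted p = 0.191). It was at 0.26 with library totals alone (adjusted p = 0.0779), where every siALDOA library lay above every siControl library. With the replicate number as a block, BTG2 was called at 0.19 with adjusted p = 0.0467. Over the 13 alternatives the adjusted p of BTG2 ran from 0.0467 to 0.748. Same-numbered libraries deviated together over genes of at least 10 CPM. Over all genes tested they hardly did, with correlations of 0.035, 0.027 and 0.026, although every other pair across the groups was lower. By the 0.1 taken as pairing, the block thus rests on that choice of genes. In each same-numbered pair BTG2 was higher with siALDOA than with siControl.

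BTG3 (chromosome 21, 17593653 to 17612945), another antiproliferative relative, was the least counted of the 9 genes, at 8.23, 8.15 and 9.26 CPM with siALDOA and 6.96, 8.75 and 9.04 CPM with siControl. The groups overlapped, and its log2 fold change was 0.05 (standard error 0.137, adjusted p = 0.871), or 0.12 with library totals alone (adjusted p = 0.704) and -0.06 without siControl replicate 1. The antisense gene BTG3-AS1 shares 326 exon bases with BTG3 and had 9 to 31 counts per library. BTG4, the family member outside the 9, had 0 counts in all 6 libraries, which allows up to 0.11 CPM in the smallest one and covers counting error only. SESN2 and DCP1B, genes of the lists below, were at 0 as well, and whether a gene at 0 could be counted was not tested.

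TOB1 and TOB2 carry, beside the BTG domain, motifs that bind the cytoplasmic poly(A)-binding protein. TOB2 (chromosome 22, 41433494 to 41446801) stood at 80.7, 78.9 and 79.2 CPM with siALDOA and at 102.7, 99.7 and 92.9 CPM with siControl. Every siALDOA library lay below every siControl library, and the siALDOA libraries lay close together (SD 0.967 CPM, against 5.02 CPM with siControl). With library totals alone the groups stayed apart, but the SD was 1.63 CPM with siALDOA and 0.61 CPM with siControl. TOB2 fell by a log2 difference of -0.31 (standard error 0.0609, adjusted p = 0.00229). With library totals alone it was at -0.23 and not called (adjusted p = 0.0695, range 5.08e-05 to 0.0695 over the 13 alternatives). The pseudogene TOB2P1 had 94 to 151 counts per library beside 2246 to 3203 of TOB2, and how reads matching both were assigned is not stated in the sources used here.

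TOB1 (chromosome 17, 50862223 to 50867978) stood at 116.7, 111.0 and 117.9 CPM with siALDOA and at 126.7, 106.9 and 113.1 CPM with siControl. The siALDOA values lay within the range of the siControl values. The log2 fold change of TOB1 was -0.0049 (standard error 0.0655, adjusted p = 0.973), and its sign changed with the scaling, to 0.07 with library totals alone. The antisense gene TOB1-AS1 shares 281 exon bases with TOB1 and had 52 to 100 counts per library.

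CNOT6 and CNOT6L are the paralogous deadenylases of the Ccr4 type, of which a complex holds either. CNOT6L (chromosome 4, 77713387 to 77819615) stood at 36.8, 35.7 and 31.8 CPM with siALDOA and at 43.5, 41.7 and 42.5 CPM with siControl. All siALDOA libraries were below all siControl libraries, with siALDOA replicate 3 the lowest. CNOT6L fell by a log2 difference of -0.29 (standard error 0.0746, adjusted p = 0.0149). It was not called without siALDOA replicate 3 (-0.23, adjusted p = 0.0848), without siControl replicate 3 (-0.29, adjusted p = 0.0611) or with library totals alone (-0.22, adjusted p = 0.142), and the adjusted p ran from 0.00445 to 0.142 over the 13 alternatives. CNOT6 (chromosome 5, 180494379 to 180578358) stood at 119.2, 112.5 and 113.0 CPM with siALDOA and at 114.2, 117.2 and 118.0 CPM with siControl. These groups overlapped, and the log2 fold change of CNOT6 was -0.02 (standard error 0.0572, adjusted p = 0.877), or 0.05 with library totals alone.

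CNOT7 and CNOT8 are the paralogous deadenylases of the Caf1 type, to which BTG and TOB proteins bind. CNOT7 stood at 34.5, 32.01 and 31.8 CPM with siALDOA and at 39.0, 36.8 and 37.0 CPM with siControl. CNOT8 (chromosome 5, 154857553 to 154876792) stood at 84.0, 72.6 and 72.7 CPM with siALDOA and at 72.4, 63.5 and 70.1 CPM with siControl. For both genes the groups did not overlap, CNOT7 being lower and CNOT8 higher with siALDOA, but neither was called. The log2 fold change was -0.20 for CNOT7 (standard error 0.0741, adjusted p = 0.102) and 0.15 for CNOT8 (standard error 0.0718, adjusted p = 0.196). They were -0.125 (adjusted p = 0.463) and 0.225 (adjusted p = 0.106) with library totals alone, again without overlap. Without siALDOA replicate 1 the log2 fold change of CNOT8 was 0.08 (adjusted p = 0.511), and without siControl replicate 2 it was 0.1 (adjusted p = 0.549). FAXDC2, on the opposite strand, shares 163 exon bases with CNOT8, or 4.15% of its exons, and rose (log2 fold change 0.80, adjusted p = 1.85e-05), with 945, 783 and 912 counts against 591, 497 and 579. The strand setting of the counting is not stated in the sources used here, so reads of FAXDC2 and CNOT8 in the shared bases cannot be told apart.

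**Figure D2:**
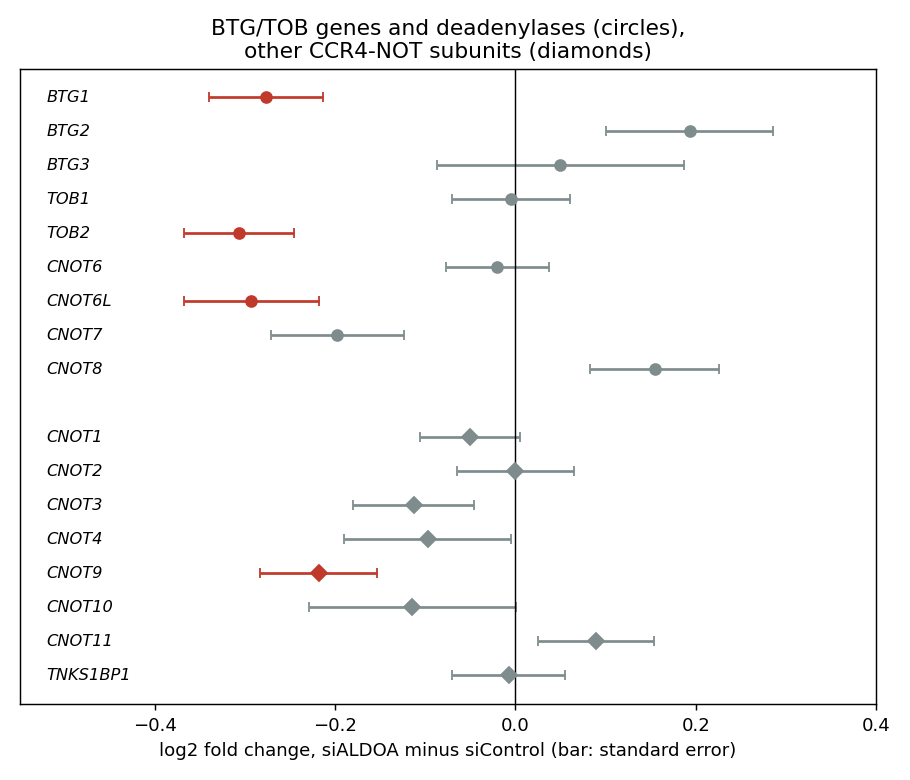
Log2 fold change of the 9 genes (circles) and of 8 other CCR4-NOT subunits (diamonds), siALDOA minus siControl, with the standard error as bars and genes of adjusted p below 0.05 in red. BTG1, TOB2, CNOT6L and CNOT9 lie between -0.31 and -0.22, and BTG2 lies highest at 0.19; with library totals alone none of the 4 was called.

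Ratios of raw counts within a library do not depend on scaling, and they were taken for 4 pairs of related genes chosen after the values were seen, with no test. The gene with the lower log2 fold change was put in the numerator of each, so that the sign of each difference is set by that choice. The ratio of BTG1 to BTG2 was 0.805, 1.01 and 1.03 with siALDOA and 1.22, 1.40 and 1.27 with siControl. That of TOB2 to TOB1 was 0.692, 0.71 and 0.672 against 0.81, 0.933 and 0.821. CNOT6L and CNOT7 are the less counted deadenylase of each type. The ratio of CNOT6L to CNOT6 was 0.308, 0.317 and 0.282 with siALDOA and 0.381, 0.356 and 0.361 with siControl. For CNOT7 to CNOT8 it was 0.411, 0.441 and 0.438 against 0.539, 0.579 and 0.528. Each numerator was itself lower without overlap of the groups, so that the lack of overlap in the ratios largely restates the choice of pairs. The log2 differences in the order given were -0.46, -0.30, -0.28 and -0.35. With each library left out in turn, as an alternative added after the data were seen, the differences ran from -0.53 to -0.35 for BTG1 to BTG2 and from -0.34 to -0.24 for TOB2 to TOB1. They ran from -0.31 to -0.23 for CNOT6L to CNOT6 and from -0.38 to -0.31 for CNOT7 to CNOT8. A ratio shows unequal change only.

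**Figure D3:**
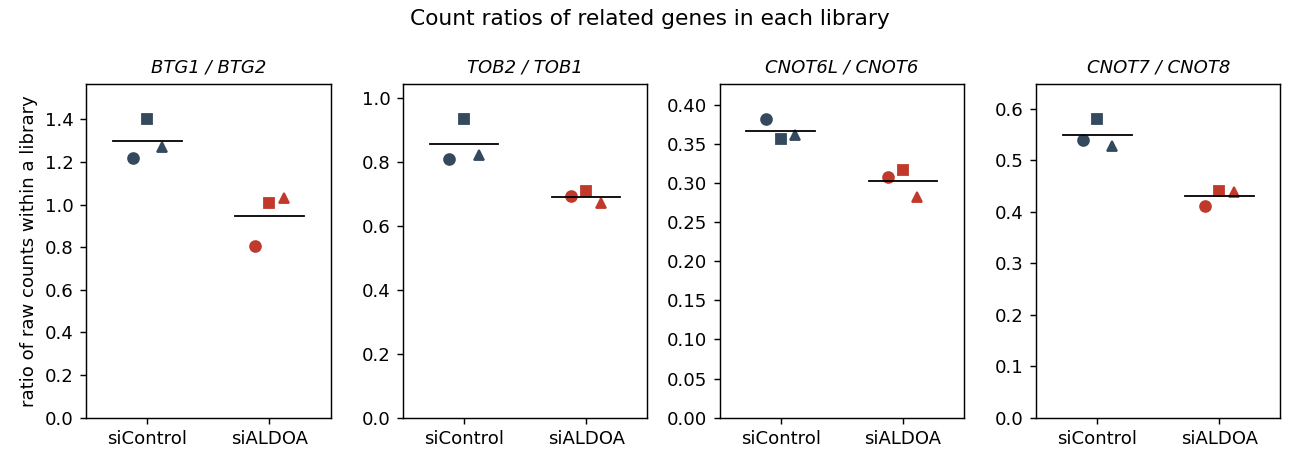
Ratio of raw counts of 4 pairs of related genes within each library (axis from 0; circles, squares and triangles mark replicates 1, 2 and 3; lines mark group means). The numerator is the gene with the lower fold change, which sets the direction; for TOB2 to TOB1 the siALDOA ratios lie at 0.672 to 0.71 and the siControl ratios at 0.81 to 0.933.

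Summed over both paralogs, the Ccr4-type deadenylases CNOT6 and CNOT6L reached 150 ± 5.74 CPM with siALDOA and 159 ± 1.40 CPM with siControl (SD, n = 3 each). The Caf1-type CNOT7 and CNOT8 summed to 109 ± 8.04 and 106 ± 5.60 CPM. TOB1 and TOB2 together had 195 ± 4.25 against 214 ± 13.4 CPM, and BTG1 and BTG2 together 122 ± 11.8 against 127 ± 7.36 CPM. The groups did not overlap for the Ccr4-type and the TOB sums, but this depends on the scaling. All 4 sums overlapped with library totals alone, an alternative added after the data were seen, at 153 ± 2.29 against 155 ± 9.42 CPM for the Ccr4 type and 200 ± 5.19 against 208 ± 9.81 CPM for TOB1 and TOB2. The difference for BTG1 and BTG2 then changed sign, at 125 ± 8.08 against 124 ± 6.76 CPM, and that for the Caf1 type grew from 2.98 to 8.27 CPM, at 112 ± 4.56 against 104 ± 7.46 CPM.

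Levels of different genes were compared per length, as CPM per kb of the union of annotated exons in GENCODE release 44. In siControl libraries TOB1 was highest at 45.8 ± 4.02 CPM per kb (SD, n = 3), followed by TOB2 at 22.7 ± 1.15 and BTG2 at 20.1 ± 1.88, which overlapped each other. CNOT6 at 17.7 ± 0.305 and CNOT8 at 17.5 ± 1.17 CPM per kb overlapped as well. The highest siControl library of CNOT8 (18.4) also lay above the lowest of BTG2 (18.3). BTG1 followed at 14.7 ± 0.53. CNOT6L had 4.55 ± 0.0984 CPM per kb, above BTG3 at 3.58 ± 0.49 and CNOT7 at 3.44 ± 0.115, which overlapped. With siALDOA the order after TOB1 (45.7 ± 1.46 CPM per kb) was BTG2 at 22.9 ± 3.74, CNOT8 at 19.5 ± 1.66 and TOB2 at 18.3 ± 0.223 CPM per kb, where BTG2 overlapped CNOT8 and CNOT8 overlapped TOB2. The union of exons counts every annotated isoform, 10.9 kb for CNOT7 and 9.35 kb for CNOT6L, and so lowers the level of genes with long rare exons.

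**Figure D4:**
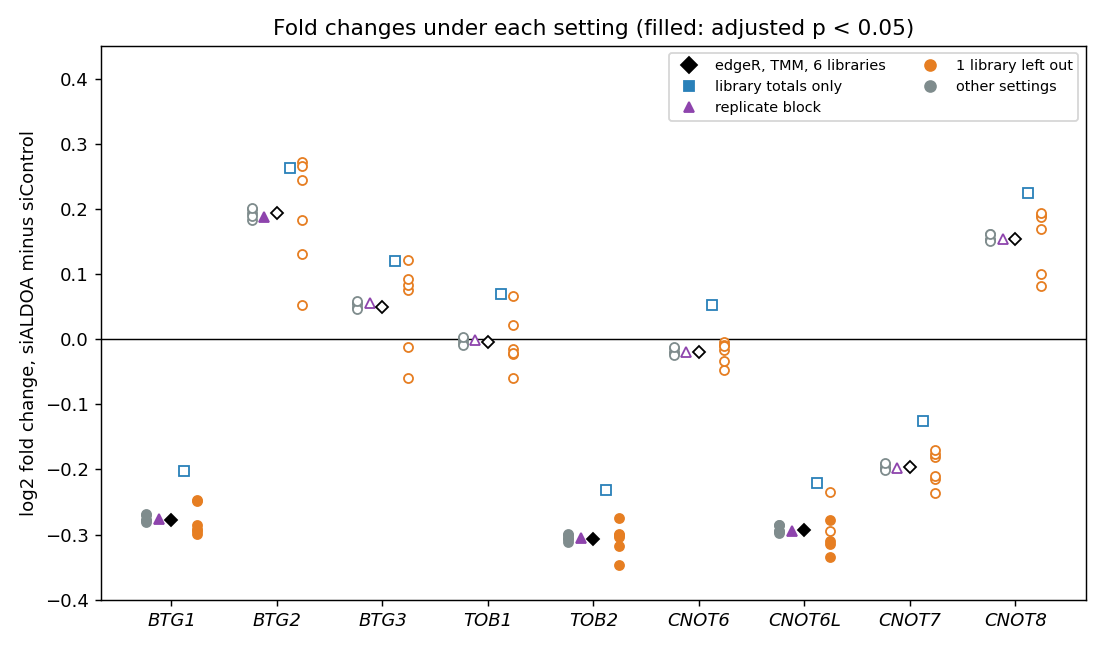
Log2 fold change of the 9 genes under the main setting (black diamonds) and 13 alternatives, filled where the adjusted p was below 0.05. BTG1 and TOB2 were called in 12 of 13 alternatives and CNOT6L in 10, library totals alone being an exception for each; BTG2 was called only with the replicate block, and TOB1, BTG3 and CNOT6 lie on both sides of 0.

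Of the other CCR4-NOT subunits, 8 of 8 were tested, 1 fell and 0 rose, beside 5.29% and 4.36% of all genes tested, with a median of -0.074. At an unadjusted p below 0.05, 0 were higher, as with DESeq2 and limma-voom. CNOT9, which binds the scaffold CNOT1 and recruitment factors, fell (log2 fold change -0.22, adjusted p = 0.0385, lower in 3 of 3 libraries). It lost the call without siALDOA replicate 1 or 2 or siControl replicate 2 or 3, at -0.21 to -0.18 and adjusted p from 0.086 to 0.153. TNKS1BP1, the highest of these subunits in CPM, had 345.3 ± 26.7 CPM with siALDOA and 347.2 ± 15.9 CPM with siControl (log2 fold change -0.0076, adjusted p = 0.96). The scaffold CNOT1, named after its values were seen, had 279.6 ± 10.1 and 289.5 ± 7.97 CPM (log2 fold change -0.05, adjusted p = 0.642).

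The counts for the rest of the mRNA decay machinery stand beside 4.36% called higher and 5.29% called lower over all genes tested. Of 8 other deadenylases tested, 0 rose and 0 fell in edgeR, DESeq2 and limma-voom (1 higher and 0 lower at an unadjusted p below 0.05; median -0.008). PAN2 was that gene, named after its value was seen, at 0.23 with adjusted p = 0.0747, and it was called higher with library totals alone (0.30, adjusted p = 0.0379), with the replicate block (0.22, 0.0328) and without siALDOA replicate 3 (0.29, 0.0412). Of 7 poly(A)-binding proteins and partners, 0 rose and 0 fell with any of these tools (0 higher and 1 lower at an unadjusted p below 0.05; median 0.005), and PABPC1, the main cytoplasmic one, had 1358 ± 32.3 CPM with siALDOA and 1354 ± 37.3 CPM with siControl. Of 12 decapping and decay genes 1 rose and 0 fell (0 lower at an unadjusted p below 0.05 and with both other tools; median 0.075). This was XRN1, the cytoplasmic exonuclease that degrades decapped mRNA, at 0.21 with adjusted p = 0.049997, and it lost the call without any 1 of the 6 libraries, at 0.17 to 0.24 with adjusted p from 0.0593 to 0.245, as well as with limma-voom (adjusted p = 0.0547) and without the filter on low counts (0.0638). Its adjusted p over the 13 alternatives ran from 0.025 to 0.245.

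Among 17 tested adaptors that bring CCR4-NOT to mRNAs by other routes, 2 fell and 0 rose, beside 5.29% and 4.36% of all genes tested (0 higher at an unadjusted p below 0.05 and with both other tools; median -0.089). At an unadjusted p below 0.05, 6 were lower, beside at least 3602 of all 15307 genes in either direction. DESeq2 called 3 lower (922 of 13387 over all genes) and the block 3 (1175 of 15307). limma-voom called 2 lower (782 of 15307) and library totals alone 1 (279 of 15307). The gene gained with DESeq2 and with the block, named after its values were seen, was SAMD4B (-0.20, adjusted p = 0.0532), which was also called without the filter on low counts (0.0255), and ZFP36 was called lower without siALDOA replicate 3 (-0.27, 0.0362). CPEB4, which binds cytoplasmic polyadenylation elements, fell from 43.5 CPM in each siControl library to 31.1, 30.6 and 29.1 CPM (log2 fold change -0.53, adjusted p = 4.3e-05). SAMD4A, a Smaug protein that binds stem-loops in mRNAs, fell (-0.35, adjusted p = 0.0319) and lost the call without siALDOA replicate 1 or 3 or siControl replicate 1 or 2, at -0.36 to -0.29 and adjusted p from 0.0713 to 0.116. Of 9 tested binding partners and reported targets of BTG/TOB proteins, 1 fell and 0 rose, beside the same shares of all genes tested (0 higher at an unadjusted p below 0.05 and with both other tools; median -0.049). CCND1, the cyclin whose gene is a reported target of BTG and TOB proteins, fell (-0.24, adjusted p = 0.0122, lower in 3 of 3 libraries), and without siControl replicate 2 or 3 it was at -0.22 and -0.23 with adjusted p = 0.0727 and 0.0692.

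As genes regulated by growth signals, 22 immediate-early genes were tested, of which 5 fell and 0 rose (median -0.18), beside 5.29% and 4.36% of all genes. At an unadjusted p below 0.05, 11 were lower and 2 higher, beside at least 3602 of all 15307 genes in either direction. DESeq2 called 6 lower, limma-voom 5 and library totals alone 3, each with 0 higher. Over all genes DESeq2 called 922 lower and 710 higher of 13387, and limma-voom 782 lower and 629 higher of 15307. Library totals alone called 279 lower and 896 higher of 15307. The replicate block, which called 1175 lower and 987 higher of all 15307 genes, called 7 lower and 1 higher of this list. Those gained, named after their values were seen, were MYC (-0.18, lower with DESeq2, with the block and without the filter on low counts), JUNB (-0.18, lower with the block) and IER2 (0.16, higher with the block), and ZFP36, also on this list, without siALDOA replicate 3. The 5 genes that fell were the AP-1 subunits JUND (-0.50, adjusted p = 3.72e-05) and JUN (-0.41, 5.02e-05), and the transcription factors SRF (-0.43, 0.00231), KLF4 (-0.36, 0.0279) and EGR1 (-0.40, 0.0362). EGR1 lost the call without siALDOA replicate 1 or 3 or siControl replicate 2 or 3 (-0.44 to -0.26, adjusted p from 0.0547 to 0.196), and KLF4 without siALDOA replicate 1 or 2 or siControl replicate 2 or 3 (-0.38 to -0.30, adjusted p from 0.0586 to 0.144). Of 21 p53 target genes tested, 2 fell and 0 rose, beside 5.29% and 4.36% of all genes tested. At an unadjusted p below 0.05, 4 were lower and 2 higher, and the median was -0.06. The p53 status of the cells was not examined here, and these counts are not read as p53 activity. DESeq2 and limma-voom each called 2 lower and 0 higher, but library totals alone called 1 lower and 2 higher and the replicate block 3 lower and 2 higher, so the balance depends on the setting. DDB2, named after its values were seen, was also called higher without the filter on low counts (0.37, adjusted p = 0.0316), with ribosomal RNA genes left out (0.38, 0.0481) and without siControl replicate 3 (0.48, 0.0411). TIGAR, named in the same way, was at -0.29 (adjusted p = 0.0647) and was called lower without the filter (-0.295, 0.0314), with the block (-0.29, 0.0375), without siALDOA replicate 1 (-0.36, 0.0274) and without siControl replicate 1 (-0.37, 0.0249). The genes that fell were CDKN1A, the cyclin-dependent kinase inhibitor p21 (-0.50, adjusted p = 5.02e-05), and TNFRSF10B, a TRAIL receptor (-0.23, adjusted p = 0.0297). TNFRSF10B lost the call without siALDOA replicate 1 or 3 or siControl replicate 1 or 3, at -0.23 to -0.20 and adjusted p from 0.0659 to 0.157. With the replicate block, 987 of all 15307 genes tested were called higher and 1175 lower, where 668 and 810 were called without it. Of all these lists, markers included, 23 genes were called with the block and 14 without it. With library totals alone 10 were called, of which 7 were shared with the 14. CNOT9, SAMD4A, CCND1, EGR1, KLF4, TNFRSF10B and KRT18, each lower with siALDOA, lost the call, and PAN2 (0.30), SESN1 (0.30) and DDB2 (0.44) gained one, each higher.

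**Figure D5:**
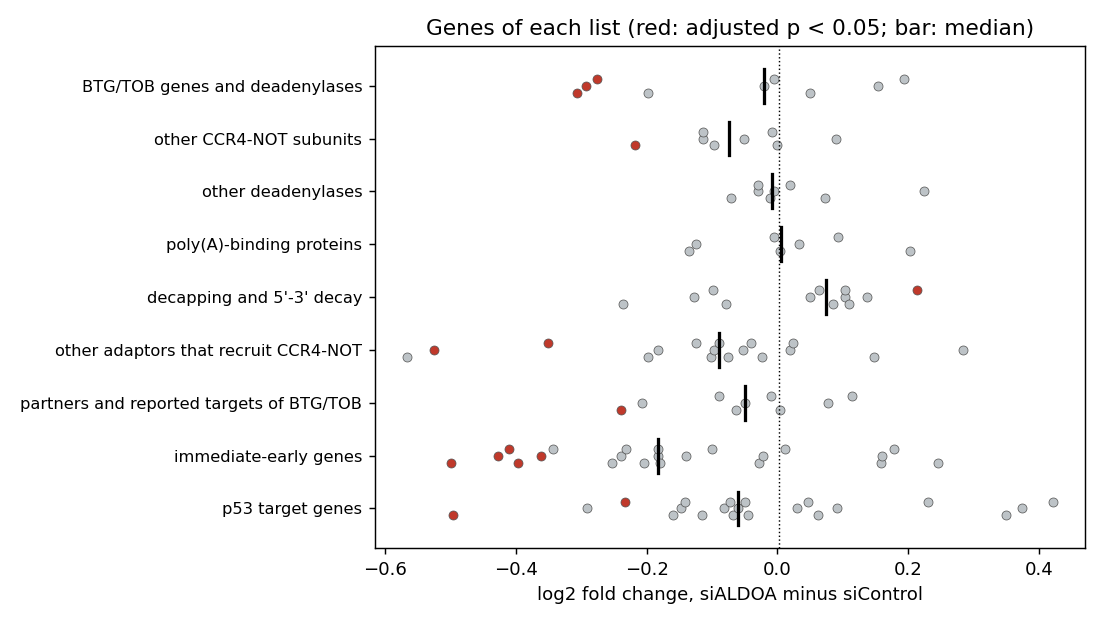
Log2 fold change of each tested gene in 9 lists, siALDOA minus siControl, with genes of adjusted p below 0.05 in red, list medians as bars and the median of all genes tested as a dotted line. The immediate-early genes have the lowest median, -0.18, and the decapping and decay genes the highest, 0.075.

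By a rule on likeness, the genes whose log2 CPM over the 6 libraries correlated most with a member were taken from 10078 genes of at least 10 CPM, as a description. For BTG1 these were GCLM (Pearson r = 0.997), TSPYL1 (0.996) and NFYA (0.993). For BTG2 they were MARCHF7 (0.998), DNAJC3 (0.994) and MTERF4 (0.99), and for TOB2 they were GPS2 (0.994), RAB5IF (0.993) and NKAPD1 (0.992). The points share library and group, and with so many genes and 6 libraries, values this high say nothing of shared control.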

How the data were processed

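The labels gave the treatment, replicate number and time of each of the 6 HT29 libraries. Per-gene raw counts were deposited by the authors, who used TopHat2 for alignment to hg38 and gfold for counting. The annotation, strand setting and treatment of reads with several matches are not given in the sources used here. The counts were tested in R 4.3.3 with edgeR 4.0.16 (filterByExpr, TMM, quasi-likelihood F-test, Benjamini-Hochberg threshold 0.05), and log2 CPM used a prior count of 2. Standard errors are the log2 fold change over the square root of F. The scripts were tested on simulated data. Alternatives were DESeq2 1.42.0, limma-voom (limma 3.58.1), library totals, upper quartile scaling, no low-count filter, ribosomal RNA genes left out, a replicate block and leaving out each library. Annotation and promoter searches used python 3.11.15 and figures matplotlib 3.10.9.

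The members and lists were chosen with earlier results of these data known. Genes named were ALDOA, the members, BTG4, every called gene of a list (at most 5 per direction), the highest of the CCR4-NOT subunits, poly(A)-binding proteins and each marker list, and the most correlated genes. Outside this rule, genes were named for sharing exon bases or sequence with a member, for 0 counts among the lists, or after their values were seen (CNOT1 and genes called only under an alternative). Deviations of same-numbered libraries from their group means correlated at 0.212, 0.138 and 0.208 over 10079 genes of at least 10 CPM, a minimum that no earlier rule fixed, and at 0.035, 0.027 and 0.026 over all 15307 genes tested, under the 0.1 taken as pairing. The labels do not say what a number marks. Over genes of at least 10 CPM, siALDOA replicate 2 correlated more with siControl replicate 3, at 0.146. Over all genes tested that value was 0.022, below the 0.027 with siControl replicate 2. The libraries are labelled as biological replicates.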

Additional observations from a re-analysis of the deposited data

How the results depend on the processing

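The 3 calls among the 9 genes held with DESeq2, limma-voom, upper quartile scaling, no low-count filter, ribosomal RNA genes left out and the replicate block. With library totals alone 0 of 9 were called lower, at -0.203 for BTG1, -0.232 for TOB2 and -0.221 for CNOT6L, and TOB1 (0.069) and CNOT6 (0.052) turned positive. TOB1 was also above 0 with upper quartile scaling (0.0018) and without ribosomal RNA genes (0.0025). The causes were not tested. Under the replicate block 1 of the 9 was called higher (BTG2, 0.187), 23 genes of the other lists were called in place of 14 (9 gained, 0 lost), and no other call among the 9 or for ALDOA changed. Over all genes tested the block called 987 higher and 1175 lower, in place of 668 and 810. With each library left out in turn, 2 to 3 of the 9 were called lower and 7 to 12 genes of the other lists were called. Over all genes these fits called 359 to 644 higher and 471 to 790 lower, where the main fit called 668 and 810. The log2 fold changes then ran from -0.335 to -0.234 for CNOT6L, -0.059 to 0.121 for BTG3 and -0.06 to 0.066 for TOB1, and fewer samples enter each such fit. BTG3, at 217 to 298 counts per library, has the largest standard error of the 9.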
